A study of Homo sapiens with 8 samples.

Results

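The genes encoding the TGF-β ligands (TGFB1, TGFB2 and TGFB3), their receptors (TGFBR1, TGFBR2 and TGFBR3) and the latent TGF-β binding proteins (LTBP1, LTBP2, LTBP3 and LTBP4) were followed in fibroblasts exposed to medium from cells undergoing oncogene-induced senescence. These 10 genes were taken by symbol from a count table of 27696 genes, and all 10 were found and passed the filter on low counts. The recipient cells were IMR90, a primary human fibroblast line from embryonic lung that carried no RAS transgene. For 3 days they received conditioned medium of IMR90 ER:RAS fibroblasts, donor cells in which a fusion of the oncogene RAS with the estrogen receptor is switched on by 4-hydroxytamoxifen (4-OHT). The medium came from donor cells at day 0, 4, 7 or 10 of 4-OHT, and each recipient group carries that day in its name (D0, D4, D7 or D10). Poly(A) RNA from 2 independent experiments was sequenced, giving 8 libraries of 11708193 to 13395912 counts. D0 was the control for the other 3 groups, so the 3 comparisons share their control libraries.

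TGF-β is secreted as a latent dimer, in which the mature ligand stays bound by its own propeptide. LTBP1, LTBP3 and LTBP4 attach this latent complex to the extracellular matrix, and integrins or proteases release the ligand there. The freed ligand binds TGFBR2, which phosphorylates TGFBR1, and TGFBR1 then activates SMAD2 and SMAD3. In fibroblasts this pathway induces matrix genes and the contractile genes of the myofibroblast, among them ACTA2.

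The recipient cells carried fibroblast RNA in every library. The 10 fibroblast markers examined were all detected, with a summed level of 30390 to 46850 CPM (counts scaled to library totals adjusted by TMM) in 7 libraries. In D10 of experiment 2 the sum was 10130 CPM, against 34740 CPM in D10 of experiment 1, and COL1A1 stood at 1295 CPM against 9432 CPM. Of the 10 markers, LUM alone was higher in D10 of experiment 2 (258 against 167 CPM). FAP was only a little lower there (70.5 against 85.1 CPM). Summed epithelial markers did not pass 0.764 CPM in any library, endothelial markers 3.74 CPM and leukocyte markers 3.35 CPM. The summed smooth muscle markers (MYH11, DES, SMTN and LMOD1) were expressed, at 131 to 281 CPM, although DES did not pass 3 counts in any library. Because D10 of experiment 2 stands apart, the members are given by experiment below. The material was bulk RNA, so fewer cells with a transcript and less transcript per cell cannot be told apart.

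The 3 ligand genes lie on different chromosomes and their start regions differ in sequence. TGFB1 (ENSG00000105329.9) lies at chr19:41301587-41353911 on the minus strand, TGFB2 (ENSG00000092969.11) at chr1:218346235-218444619 on the plus strand, and TGFB3 (ENSG00000119699.7) at chr14:75958099-75982991 on the minus strand (GRCh38, GENCODE 29). The 250 bases before each RefSeq start of the ligand genes are shown, and no link between these sequences and the levels was tested. RefSeq on GRCh38.p14 gives 2 starts for TGFB3, and the window of the second is intronic in GENCODE 29. The TGFB2 window overlaps an exon of the antisense gene TGFB2-AS1, and the RefSeq start it precedes lies upstream of the GENCODE 29 gene start. Capitals mark the cAMP response core (ACGTCA), the palindromic E-box (CACGTG), the TATA box (TATAAA) and the GC box (GGGCGG), each searched on both strands.
TGFB1, chr19:41353923-41354172, minus strand: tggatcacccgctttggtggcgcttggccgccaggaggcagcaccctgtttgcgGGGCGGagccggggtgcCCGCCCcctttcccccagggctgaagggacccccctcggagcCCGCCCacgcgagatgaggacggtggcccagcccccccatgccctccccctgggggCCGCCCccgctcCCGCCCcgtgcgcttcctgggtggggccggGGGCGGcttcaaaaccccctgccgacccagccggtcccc
TGFB2, chr1:218345086-218345335, plus strand: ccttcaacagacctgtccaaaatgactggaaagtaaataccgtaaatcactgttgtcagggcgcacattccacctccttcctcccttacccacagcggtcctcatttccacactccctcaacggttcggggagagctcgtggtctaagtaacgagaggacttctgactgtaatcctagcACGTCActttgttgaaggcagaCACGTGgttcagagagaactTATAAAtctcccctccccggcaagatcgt
TGFB3 first start, chr14:75983012-75983261, minus strand: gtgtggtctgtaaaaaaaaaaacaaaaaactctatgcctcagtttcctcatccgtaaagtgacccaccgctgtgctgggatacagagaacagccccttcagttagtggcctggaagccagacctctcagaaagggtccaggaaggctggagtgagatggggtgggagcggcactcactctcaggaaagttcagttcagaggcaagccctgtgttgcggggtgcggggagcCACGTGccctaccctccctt
TGFB3 second start, chr14:75981996-75982245, minus strand: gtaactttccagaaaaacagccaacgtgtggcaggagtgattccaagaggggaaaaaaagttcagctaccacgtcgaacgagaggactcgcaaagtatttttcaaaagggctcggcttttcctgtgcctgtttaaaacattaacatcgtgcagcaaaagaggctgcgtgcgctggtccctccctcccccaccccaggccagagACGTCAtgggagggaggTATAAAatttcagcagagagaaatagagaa

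The TGFB1 window held 6 GC boxes and none of the other 3 motifs. The TGFB2 window held the cAMP response core at positions -71 to -66 from the RefSeq start, the E-box at -49 to -44 and the TATA box at -29 to -24. At the second TGFB3 start the cAMP response core lay at -47 to -42 and the TATA box at -30 to -25, whereas the first start had the E-box alone, at -20 to -15. Of 35116 promoter windows of the same length, 7.10% held the cAMP response core, 6.35% the E-box, 10.7% the TATA box and 42.6% the GC box. Among the other members, 1 LTBP1 start held the cAMP response core (2 overlapping matches on opposite strands between -94 and -87), and no receptor window held it, the E-box or the TATA box. These matches describe letters in the windows, not occupied sites.

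At D0 the members spanned a wide range of levels, compared here per kilobase of exon. LTBP1 was highest at 138 ± 0.845 CPM per kb (mean ± SD, n = 2), followed by TGFBR2 at 90.6 ± 9.62. LTBP2 (48.9 ± 7.69), LTBP4 (43.1 ± 5.34) and TGFB1 (39.7 ± 13.0) came next, and the libraries of neighbors in this order overlapped. LTBP3 stood at 20.4 ± 4.32, TGFB2 at 15.3 ± 0.304 and TGFBR1 at 9.62 ± 5.61 CPM per kb. TGFBR3, at 2.20 ± 0.414, and TGFB3, at 0.715 ± 0.288, were lowest. LTBP1 and TGFBR2 were thus the most abundant members, and TGFB3 was represented by 11 to 62 counts per library.

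**Figure D1:**
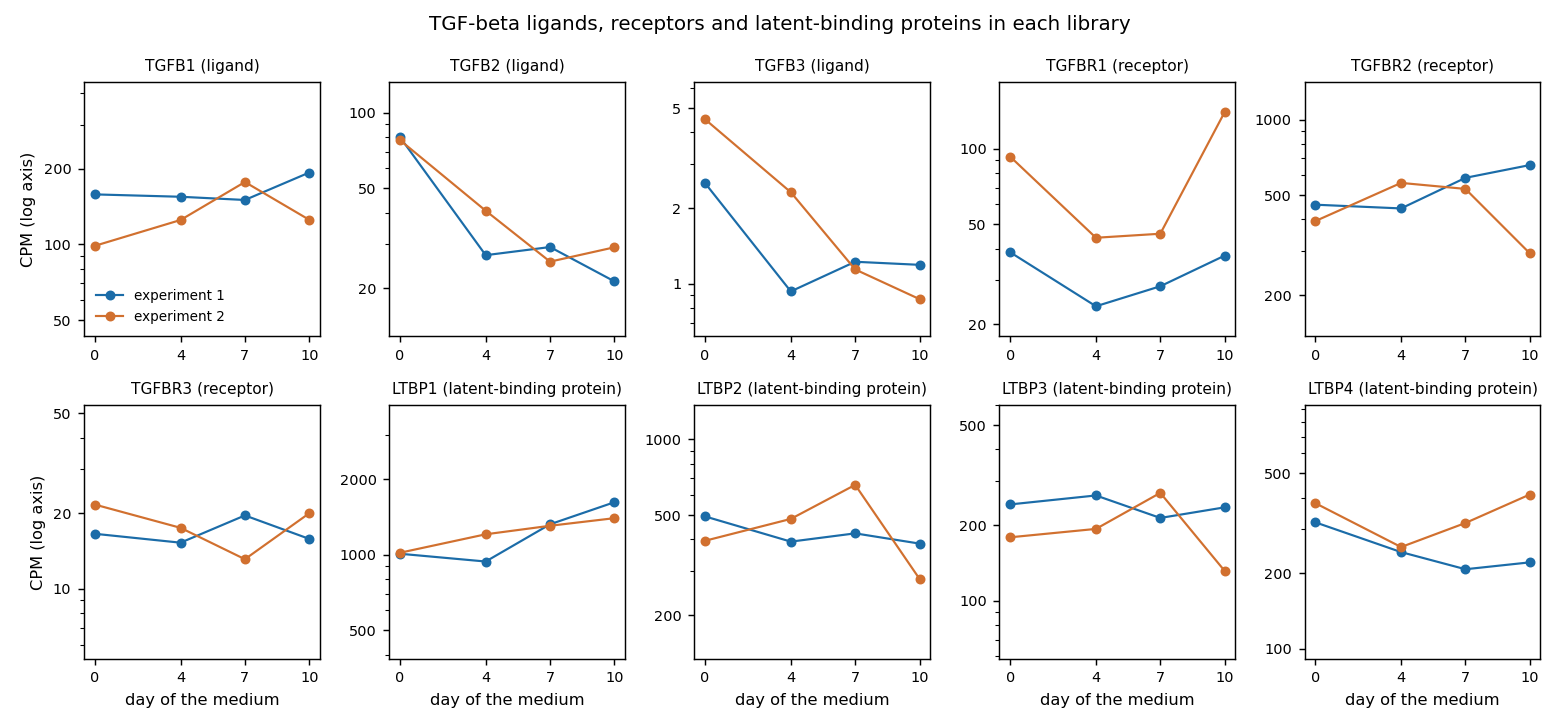
Each panel shows 1 gene, with CPM on a log axis (each axis covers the same fold range) against the day of the conditioned medium, and each point is 1 library, joined by experiment. Both TGFB2 lines drop from about 80 CPM at D0 to 40.7 or less afterwards, while TGFBR1 runs higher in experiment 2 on every day.

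TGFB2 was the ligand with the clearest decrease. TGF-β2 is the isoform that needs betaglycan for efficient binding to the signaling receptors. At D0 the gene stood at 80.0 CPM in experiment 1 and 77.8 CPM in experiment 2. It was at 27.1 and 40.7 CPM in D4, at 29.2 and 25.5 CPM in D7, and at 21.3 and 29.1 CPM in D10. All 6 libraries exposed to later medium lay below both D0 libraries, and most of the difference was already present at D4. The fitted log2 fold change was -1.22 ± 0.27 (SE) at D4, -1.53 ± 0.27 at D7 and -1.65 ± 0.27 at D10, the last a level 3.13-fold lower than D0. Without accounting for the experiment, these differences did not pass the threshold of 0.05 (edgeR's quasi-likelihood test, Benjamini-Hochberg adjusted p = 0.757, 0.292 and 0.0637 for D4, D7 and D10). With the experiment as a replicate block, TGFB2 fell at D7 and D10 (edgeR's quasi-likelihood test, adjusted p = 0.0162 and 0.00333) but not at D4 (adjusted p = 0.0547). DESeq2, without the block, gave adjusted p = 0.0621, 0.00106 and 7.1e-05 for the same days. The annotation puts 26.6% of the TGFB2 exon bases also within TGFB2-OT1 on the same strand, where reads of the 2 genes cannot be told apart.

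TGFB3 was lower as well, but from few reads. D0 held 30 counts in experiment 1 and 62 in experiment 2, D4 held 12 and 31, D7 16 and 15, and D10 15 and 11. In CPM this was 2.51 and 4.51 for D0, 0.931 and 2.31 for D4, 1.22 and 1.14 for D7, and 1.19 and 0.868 for D10. Both libraries of each later group lay below both D0 libraries, although at D4 the gap was small (2.31 against 2.51 CPM). The log2 fold change was -1.11 ± 0.53 at D4, -1.57 ± 0.54 at D7 and -1.77 ± 0.55 at D10. None of these passed the test (edgeR's quasi-likelihood test, adjusted p = 0.321 at D10, and 0.0774 with the replicate block). The D10 difference was close in size to that of TGFB2, with a larger SE (0.55 against 0.27).

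TGFB1, the most abundant ligand, did not share this decrease. It stood at 158 and 98.7 CPM at D0, 155 and 125 CPM at D4, 150 and 177 CPM at D7, and 193 and 125 CPM at D10. The libraries of every later group overlapped those of D0. Its log2 fold changes of 0.12 ± 0.32 (D4), 0.35 ± 0.32 (D7) and 0.31 ± 0.32 (D10) came with no adjusted p under 0.516 in edgeR's quasi-likelihood test with or without the block. Within the experiments the D10 change was 0.29 and 0.34 on the log2 scale.

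In the makeup of the ligand transcripts, TGFB1 took a larger share of every later library than of either D0 library. Per exon length, TGFB1 made up 70.4% ± 6.88 (SD, n = 2) of the summed level of the 3 ligands in D0, 86.0% ± 5.36 in D4, 90.0% ± 1.87 in D7 and 90.0% ± 4.42 in D10. The share of TGFB2 was 28.2% ± 6.04 at D0, and 13.3% ± 4.91, 9.55% ± 1.81 and 9.57% ± 4.41 at D4, D7 and D10. TGFB3 went from 1.38% ± 0.839 to 0.387% ± 0.0136. In each experiment TGFB1 exceeded TGFB2 by a larger factor on every later day than at D0, with 3.15 at D0 and 14.4 at D10 in experiment 1 and 2.02 and 6.85 in experiment 2. The summed level of the 3 ligands was 64.9 and 46.5 CPM per kb in D0, 53.3 and 47.0 in D4, 52.3 and 59.9 in D7, and 64.1 and 44.5 in D10. The sum in D10 thus lay close to that of D0 in the same experiment. With 2 libraries against 2, no exact permutation test of a share can reach 0.05, and none was made.

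**Figure D2:**
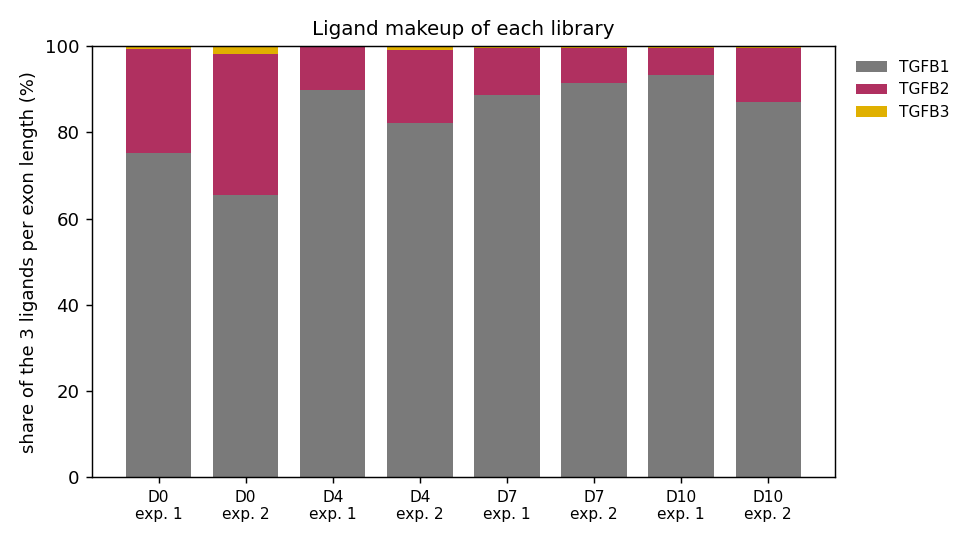
Stacked bars give the percentage of each ligand in the summed level per exon length of TGFB1, TGFB2 and TGFB3, with 1 bar per library. TGFB2 takes 23.9% and 32.5% in the D0 libraries and 6.45% to 16.8% in the 6 others.

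None of the 3 receptor genes passed the test on any day. TGFBR2, the type II kinase that binds the ligand first, was the most abundant of them, with 458 and 394 CPM at D0, 443 and 559 CPM at D4, 586 and 529 CPM at D7, and 659 and 293 CPM at D10. Its D7 libraries lay above both D0 libraries (log2 fold change 0.39 ± 0.38). At D10 the experiments went opposite ways, by 0.52 and -0.43 on the log2 scale, and the lower value belonged to the library that stood apart. Without that library the D10 change was 0.63, and without its partner from experiment 1 it was -0.52.

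TGFBR1, the type I kinase that activates SMAD2 and SMAD3, differed between the experiments on every day. The libraries of each later group overlapped those of D0. TGFBR1 stood at 38.7 and 93.0 CPM at D0, 23.6 and 44.2 CPM at D4, 28.3 and 45.9 CPM at D7, and 37.5 and 140 CPM at D10. On all 4 days it was higher in experiment 2, by 0.69 to 1.90 on the log2 scale. Within each experiment TGFBR1 was lower at D4 (log2 change -0.71 and -1.07) and D7 (-0.45 and -1.02), and at D10 it was -0.04 and 0.59 from D0. The blocked fit gave -0.90 ± 0.26 at D4 and -0.73 ± 0.26 at D7, neither past the threshold (edgeR's quasi-likelihood test, adjusted p = 0.285 and 0.320). Leaving out D10 of experiment 2 turned the D10 log2 fold change from 0.43 to -0.81. The ratio of TGFBR2 to TGFBR1 per length was 17.2 and 6.16 in D0, 27.3 and 18.4 in D4, 30.1 and 16.8 in D7, and 25.5 and 3.05 in D10. It was higher than D0 in both experiments at D4 and D7, and at D10 in experiment 1 alone.

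TGFBR3 encodes betaglycan, the coreceptor that presents TGF-β2. It was between 13.1 and 21.7 CPM in the 8 libraries, with overlapping groups on every day. Its log2 fold change was -0.22 ± 0.28 at D4, -0.23 ± 0.28 at D7 and -0.09 ± 0.28 at D10. The coreceptor thus showed no difference that could be separated from the spread on the days when TGFB2 was lower.

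Of the latent-binding proteins, LTBP1 was the one whose level lay above D0 in both experiments at D7 and D10. LTBP1 holds latent TGF-β in the matrix. It stood at 1009 and 1018 CPM at D0, 940 and 1206 CPM at D4, 1322 and 1304 CPM at D7, and 1618 and 1398 CPM at D10. The D7 and D10 libraries did not overlap those of D0, and the experiments differed by little. The log2 fold change was 0.37 ± 0.26 at D7 and 0.57 ± 0.26 at D10, a level 1.49-fold that of D0 that did not pass the test (edgeR's quasi-likelihood test, adjusted p = 0.678, and 0.171 with the replicate block).

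LTBP2, which belongs to the family but does not bind latent TGF-β, stood at 494 and 395 CPM at D0 and 385 and 279 CPM at D10. Its D10 log2 fold change was -0.42 ± 0.31, and at D7 the experiments differed in sign (-0.22 and 0.74). LTBP3 stood at 242 and 179 CPM at D0 and at 131 to 269 CPM later, with overlapping groups throughout. LTBP4, which carries mainly latent TGF-β1, stood at 319 and 380 CPM at D0. It was lower than D0 in both experiments at D4 (243 and 254 CPM) and D7 (207 and 317 CPM), and at D10 it was 221 and 411 CPM. No adjusted p of LTBP2, LTBP3 or LTBP4 was under 0.463 in edgeR's quasi-likelihood test, with or without the block. The 3 proteins that bind latent TGF-β together stood at 3.09 and 4.37 times the summed ligands per length in D0, 3.45 and 4.57 times in D4, 4.33 and 4.06 times in D7, and 4.23 and 5.71 times in D10. In experiment 2 the D7 ratio thus lay below that of D0.

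**Figure D3:**
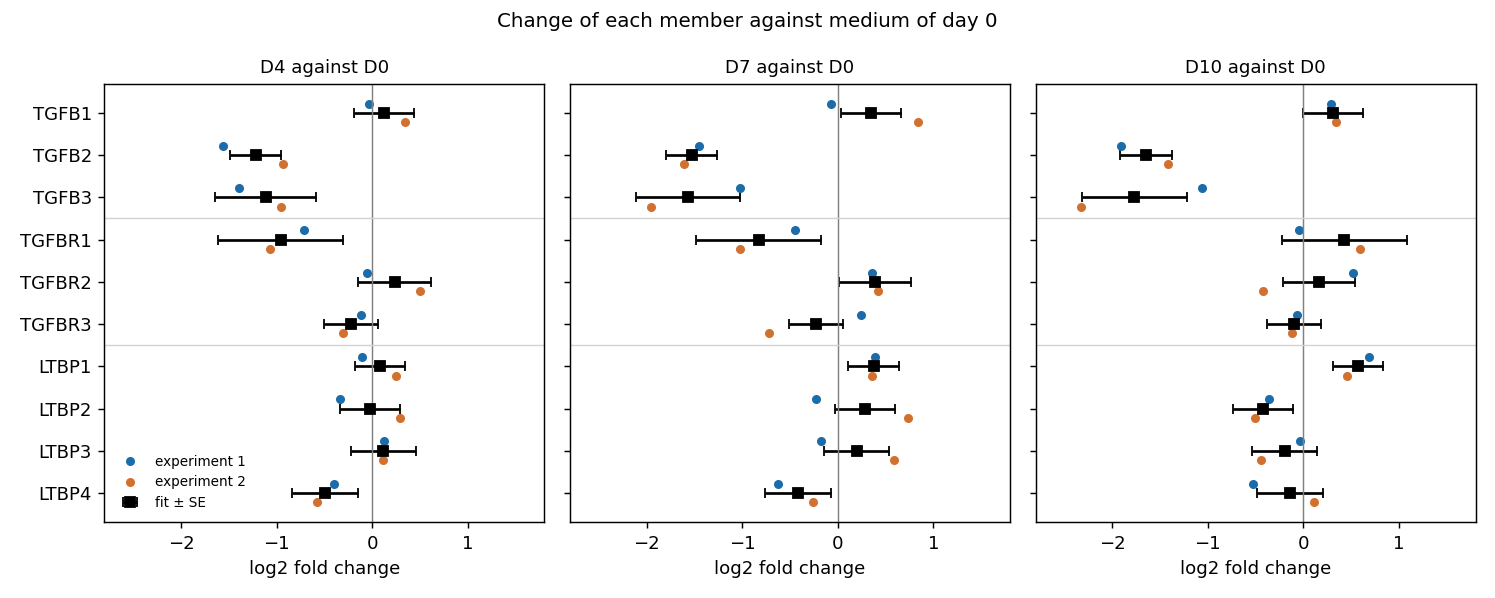
Log2 fold change against D0 of each member at D4, D7 and D10. Squares with bars are the fitted value ± SE over both experiments, and dots are the change within experiment 1 or 2. TGFB2 and TGFB3 lie at -0.93 or lower in both experiments on all 3 days, and no other member does so on any day.

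The roles are set against each other here by their medians. The median log2 fold change of the 3 ligands was -1.11, -1.53 and -1.65 at D4, D7 and D10. For the 3 receptors it was -0.22, -0.23 and 0.16, and for the 4 latent-binding proteins 0.03, 0.24 and -0.17. The median of all 13798 tested genes was 0.01, 0.00 and 0.00. With 3 ligands, of which TGFB1 had the highest value on each day, the ligand median is the value of TGFB2 or TGFB3, and leaving out D0 of experiment 2 moved it to -0.63, -1.09 and -1.29.

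The calls are counted here over all 10 members. Without the block, edgeR called 0 members at every day, against 0%, 0% and 0.290% of all tested genes at D4, D7 and D10 (0.0942% lower at D10), and 409, 599 and 1095 genes had an unadjusted p under 0.05. With the block it called 0 members at D4 (0.275% of all genes, 0.188% lower), and 1, TGFB2, at D7 (1.25% of all genes, 0.739% lower) and D10 (4.99%, 2.45% lower). DESeq2 called the same numbers of members, 0 at D4 (0.287% of all genes) and TGFB2 at D7 (0.785%, 0.406% lower) and D10 (2.17%, 0.949% lower). Libraries that did not overlap those of D0 were found for 3 members at D4 (TGFB2, TGFB3 and LTBP4, all lower), against 22.3% of all genes (12.6% lower and 9.73% higher). At D7 they were found for 5 members (the same 3 lower, TGFBR2 and LTBP1 higher) against 28.9% (15.2% lower and 13.7% higher), and at D10 for 4 (TGFB2, TGFB3 and LTBP2 lower, LTBP1 higher) against 31% (16% lower and 15% higher). Because the members were chosen with earlier results of these data known, no excess over the share of all genes is read from these counts. With 10 members these counts are a description, and TGFB2 is the member that a test called.

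The genes whose profile was most like that of each ligand were found by the correlation of log2 CPM over the 8 libraries, among all tested genes. For TGFB2 they were JAZF1, ZNF365 and TOX (Pearson's r = 0.970, 0.967 and 0.964). TOX, which encodes an HMG-box nuclear protein, was lower by -3.16 on the log2 scale at D10, and JAZF1 and ZNF365 by -1.03 and -1.02. For TGFB3 they were TRAM1, SAMD5 and CDK6 (r = 0.973, 0.971 and 0.968), and for TGFB1 ATXN7L3, PBXIP1 and PTPN18 (r = 0.969, 0.963 and 0.960). TGFB2 and TGFB3 correlated with each other at r = 0.884, and TGFB1 with them at -0.598 and -0.599. The 8 points share 4 media and 2 experiments, so these values are descriptions.

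The genes that act on latent TGF-β, carry the signal onward or respond to it were examined from fixed lists. Of 17 activation genes (integrins, proteases, fibrillins and related anchors) 13 were tested, and their median log2 fold change was 0.05 at D10. FBN2, which encodes fibrillin-2, a microfibril protein to which LTBPs attach, was the lowest. It stood at 1165 and 1127 CPM at D0, 310 and 425 CPM at D4, 432 and 376 CPM at D7, and 440 and 292 CPM at D10. All later libraries lay far below D0. At D10 its log2 fold change was -1.65 ± 0.30 (edgeR's quasi-likelihood test, adjusted p = 0.0779), and with the replicate block FBN2 fell on all 3 days (adjusted p = 0.0449, 0.0298 and 0.00701). ITGB5, the β subunit of the αvβ5 integrin, had the largest positive value of the list, 0.74 ± 0.34 (0.68 and 0.82 by experiment). ITGB5 did not pass (edgeR's quasi-likelihood test, adjusted p = 0.683, and 0.207 with the block). With the block, edgeR called FBN2 alone of this list, and the main edgeR fit without it called none. The DESeq2 Wald test, without the block, called FBN2 on all 3 days (adjusted p = 0.000554, 0.00078 and 2.98e-05).

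Among 15 genes of signal transduction and feedback, all tested, the median at D10 was 0.11. BAMBI, a pseudoreceptor that blocks type I receptors, was lower in every later medium. It stood at 63.9 and 43.2 CPM at D0, 18.2 and 14.8 CPM at D4, 14.6 and 13.8 CPM at D7, and 14.9 and 12.5 CPM at D10. The 6 later libraries lay within a narrow band, below both D0 libraries. Its log2 fold change at D10 was -1.97 ± 0.27 (edgeR's quasi-likelihood test, adjusted p = 0.0402), and with the replicate block it fell on all 3 days (adjusted p = 0.0136, 0.00568 and 0.000722). Without the block, leaving out any 1 of the 8 libraries ended the D10 call (adjusted p = 0.0544 to 0.215), with a log2 fold change of -2.23 to -1.66.

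ACVRL1, the type I receptor ALK1 through which TGF-β and BMP9 signal to SMAD1 and SMAD5, went the other way. It stood at 15.2 and 8.88 CPM at D0, 33.4 and 23.6 CPM at D4, 38.3 and 38.8 CPM at D7, and 51.3 and 18.4 CPM at D10. With the block it rose at D7 and D10 (edgeR's quasi-likelihood test, adjusted p = 0.0383 and 0.0311), without it the D10 value was 1.54 ± 0.48 with adjusted p = 0.325. TGIF1, a nuclear corepressor of SMAD2 and SMAD3, stood at 38.5 and 45.4 CPM at D0 and at 60.3 and 156 CPM at D10. Its D10 change of 1.37 ± 0.40 passed with the block (edgeR's quasi-likelihood test, adjusted p = 0.0367) and not without it (adjusted p = 0.285). SMAD2 (-0.05 ± 0.20), SMAD3 (-0.35 ± 0.48) and the inhibitory SMAD7 (0.88 ± 0.35) did not pass at D10 in either fit. For SMAD3 the experiments differed in sign at D10, with 0.18 in experiment 1 and -1.30 in experiment 2, the library that stood apart. For SMAD7 both were positive (0.69 and 1.07).

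Of 23 target genes 21 were tested, with a median of 0.12 at D10. The contractile genes were the lowest. ACTA2, smooth muscle α-actin, stood at 1347 and 1164 CPM at D0, 712 and 516 CPM at D4, 491 and 319 CPM at D7, and 225 and 145 CPM at D10. The order of the media was the same in both experiments. At D10 it fell by 2.76 on the log2 scale (SE 0.36, edgeR's quasi-likelihood test, adjusted p = 0.0399), and with the block also at D7 (adjusted p = 0.00702). Without the block the D10 call was lost on leaving out any library other than D10 of experiment 1 (adjusted p up to 0.215), with a log2 fold change of -3.09 to -2.48. CNN1 (calponin, -1.42 ± 0.33) and TAGLN (transgelin, -1.54 ± 0.35) fell at D10 with the block (edgeR's quasi-likelihood test, adjusted p = 0.00448 and 0.00332) and did not pass without it (adjusted p = 0.134 and 0.131). By experiment, CNN1 changed by -1.67 and -1.12 and TAGLN by -1.49 and -1.59. IL11, a cytokine that TGF-β induces in fibroblasts, had the largest value of the list, 4.36 ± 1.06, and it rested mainly on the library that stood apart (log2 change 1.40 in experiment 1 and 5.11 in experiment 2). IL11 did not pass in edgeR's quasi-likelihood test (adjusted p = 0.162, and 0.0509 with the block).

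Other target genes often read as a measure of the pathway did not pass the test at D10. CTGF, a matricellular growth factor, had a D10 log2 fold change of 0.15 ± 0.45, made up of -0.45 in experiment 1 and 0.47 in experiment 2, where the library stood apart. Its D4 libraries (-0.51 and -0.72) and D7 libraries (-0.87 and -0.94) lay below both D0 libraries, without passing (edgeR's quasi-likelihood test, adjusted p = 0.663 and 0.253 with the block). TGFBI, a secreted matrix protein, had a D10 value of 0.24 ± 0.37 (0.42 and -0.01 by experiment). TGFB1I1, the focal adhesion protein Hic-5, was lower than D0 in both experiments at D10 (-0.47 ± 0.22, adjusted p = 0.708 in edgeR's quasi-likelihood test and 0.183 with the block). By edgeR, in the main fit or with the block, the called genes of this list were ACTA2, CNN1 and TAGLN, all lower at D10. DESeq2 also called IL11 and TNC (tenascin-C) higher (adjusted p = 0.0111 and 0.0169).

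**Figure D4:**
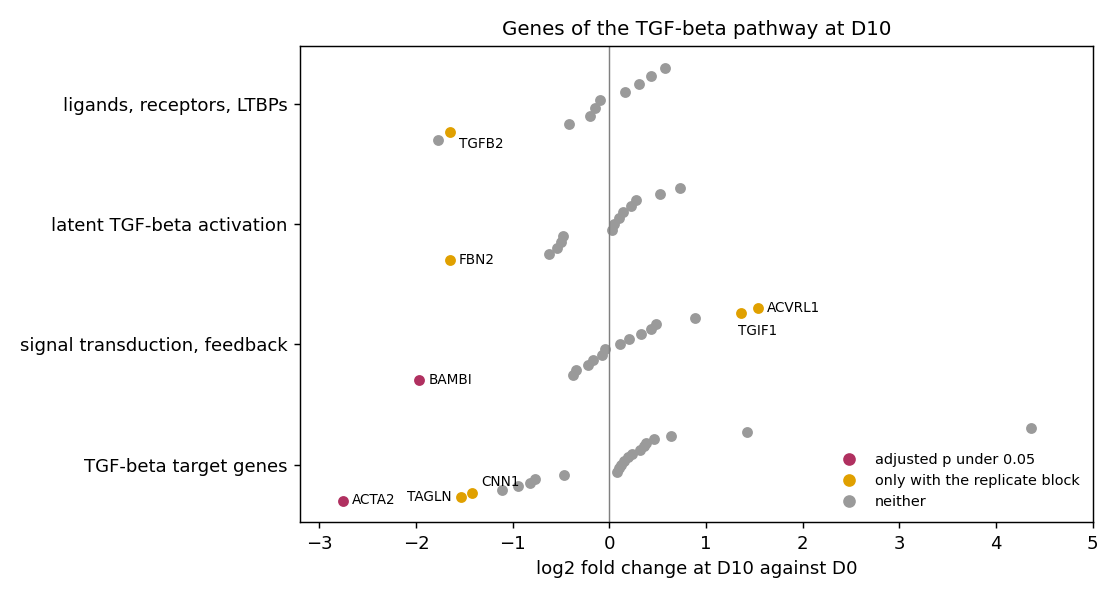
Each dot is the D10 against D0 log2 fold change of 1 tested gene, in 4 rows for the ligands, receptors and LTBPs, the activation genes, the signaling genes and the target genes. Colors mark an adjusted p under 0.05 in edgeR without the block (BAMBI and ACTA2), with the block alone (TGFB2, FBN2, TGIF1, ACVRL1, CNN1 and TAGLN), or neither.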

How the data were processed

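For 8 poly(A) libraries made with a stranded kit, the authors deposited unnormalized read counts by gene. The labels name STAR 2.5 and GRCh38, and the strand setting of the counting is not given in the sources used here. The authors also deposited 8 columns of RPM, which are normalized values and were not used. Library totals were 11708193 to 13395912. A quasi-likelihood model of edgeR 4.0.16 under R 4.3.3 (filterByExpr, TMM, glmQLFTest) took all 8 libraries with the group as its term. Benjamini-Hochberg adjustment ran over 13798 tested genes, with calls at 0.05. DESeq2 1.42.0, other scalings and filters, a replicate block and leaving out each library were the alternatives. Both the members and the gene lists were chosen with earlier results of these data known. The methods give 2 independent experiments. The replicate number was taken to mark them and so to pair libraries, which neither the methods nor the labels state. Same-numbered libraries deviated together from their group means across genes (r = 0.406 to 0.692 in 6 pairs of groups). P-values measure the spread between these cultures only. Exon lengths came from GENCODE 29, in which 27588 (99.6%) of the identifiers were found. Of each other pathway list, genes called at D10 with or without the block and those with the largest and smallest change were named, with TGFBI, TGFB1I1, CTGF, SMAD2, SMAD3, SMAD7 and TGIF1; 1 further readout gene is not reported here. The differential tests were tried on simulated counts that held no difference between the experiments, so the pairing was not part of that trial.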

Additional observations from a re-analysis of the deposited data

Results flagged for a closer look

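LTBP3 and TGIF1 moved in opposite directions on different days within both experiments, and in neither case was the difference tested. For LTBP3 the log2 change against D0 was 0.12 and 0.11 in experiments 1 and 2 at D4, and -0.04 and -0.44 at D10. For TGIF1 the D4 values were -0.0018 and -0.17, those of D7 0.06 and 0.16, and those of D10 0.65 and 1.78. The fitted LTBP3 values at D4 (0.12) and D10 (-0.20) are both small beside their SE of 0.34, as are the TGIF1 values at D4 and D7 beside theirs of 0.40, and all days share the D0 libraries.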

How the results depend on the processing

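Member directions held outside the leave-one-out fits. TGFB2 passed at D7 and D10 with the replicate block, with DESeq2 and with no filter (edgeR's quasi-likelihood test, adjusted p = 0.0132 and 0.00190 with no filter). It did not pass in edgeR with DESeq2 size factors (adjusted p = 0.2855 and 0.06225) or total counts only (0.360 and 0.0932). Nor did it pass with at least 10 counts in every library (0.297 and 0.0685) or the compared groups only (0.206 and 0.151). Leaving out 1 library gave TGFB2 log2 fold changes of -1.89 to -1.42 at D10. The block changed no other member's call. Calls over all genes at D4, D7 and D10 were 0, 0 and 40 in the main setting, 38, 172 and 688 with the block, 44, 112 and 379 with DESeq2, and 21, 93 and 371 with no filter. At D10 they were 25 with total counts only, 20 with at least 10 counts in every library, 0 with the compared groups only, 2 at an adjusted p under 0.01, and 0 to 155 when 1 library was left out, the lowest without D0 replicate 1 and the highest without D10 replicate 1. At D10 the block, DESeq2 and no filter called 1 member, 1 activation gene, 3 signaling genes with the block or no filter (1 with DESeq2), and 3 target genes with the block against 5 with DESeq2 or no filter. At D4 and D7 they called at most 2 genes of a list, and at D4 no member and no target gene. With the compared groups only, or at 0.01, the signaling and target lists held 0 calls; leaving out a library gave 0 to 1 activation and signaling and 0 to 5 target calls. Counting reads without length gave TGFB1 shares of 60.1%, 79.5%, 85.1% and 85.1% at D0, D4, D7 and D10, TGFB2 shares of 38.1%, 19.5%, 14.3% and 14.3%, and TGFB3 shares of 0.618% at D7 and 0.555% at D10 (0.676% and 0.607% by longest transcript). The median of the latent-binding proteins at D10 was -0.14 with total counts only and -0.21 with the block.

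When 1 library was left out, the ligand medians ranged from -1.54 to -0.61 at D4, -1.62 to -1.09 at D7 and -1.65 to -1.29 at D10, the receptor medians from -0.40 to -0.018 at D4 and -0.27 to 0.16 at D10, and the latent-binding medians from -0.21 to -0.022 at D10. Directions that turned, all for members that did not pass, ranged at D4 from -0.18 to 0.51 for TGFB1, -0.11 to 0.25 for LTBP1, -0.18 to 0.15 for LTBP2 and -0.12 to 0.35 for LTBP3; at D7 from -0.54 to 0.038 for TGFBR3, -0.070 to 0.57 for LTBP2 and -0.0047 to 0.43 for LTBP3; and at D10 from -0.016 to 0.69 for TGFB1, -0.81 to 1.19 for TGFBR1, -0.52 to 0.63 for TGFBR2, -0.27 to 0.11 for TGFBR3, -0.66 to 0.16 for LTBP3 and -0.66 to 0.25 for LTBP4. The cause of these changes was not tested. TGFB3 had 11 to 62 counts per library, and how much of its spread is counting error was not tested.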
